A study of Arabidopsis thaliana with 12 samples.

Results

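The nuclear genes for the light-harvesting antenna and the photosystem subunits of Arabidopsis thaliana were followed across 12 RNA sequencing libraries. The set holds 42 of the 36917 genes in the count table and is defined by locus codes, not by a threshold on measured values, though it was drawn up with earlier results of these data known: 6 LHCA genes, 14 LHCB genes, 12 PSA genes and 10 PSB genes. All 42 were found in the table and all passed the filter on low counts in each comparison. The libraries form 4 groups of 3 biological replicates. Wild-type Ler (Landsberg erecta) and the mutant ful-1, which the labels place in Ler as well, gave pistils and siliques between floral stages 12 and 16. Wild-type Col-0 and ful-7 gave dissected inflorescence meristems that still bore buds as old as stages 3 to 4, with ful-7 being the T-DNA line SALK_033647 in Col-0. Both mutants carry a defective FRUITFULL (FUL) gene, a MADS-box regulator of carpel valve growth and of meristem behaviour. Plants received no treatment and were grown at 21 °C with 16 h of light and 8 h of darkness, and each sample pooled about 20 organs. Each tissue had a different mutant allele and a different ecotype, so tissue, allele and ecotype cannot be told apart where the tissues are compared.

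Light-harvesting complex proteins bind chlorophyll and carotenoids in the thylakoid membrane and pass absorbed energy to the reaction centres. LHCB proteins form the antenna of photosystem II, which oxidises water, and LHCA proteins form the antenna of photosystem I, which reduces ferredoxin. The reaction centre cores are built from plastid-encoded proteins, while the antenna and many peripheral subunits (PSA for photosystem I, PSB for photosystem II) are nuclear-encoded and imported. Their genes respond to light, plastid state and the GLK and GATA families of transcription factors, and green carpels and valves carry photosynthetically active chloroplasts.

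Levels are given as CPM, counts scaled to the size of each library after TMM scaling of the libraries to each other. The count table names only the group of a column, and libraries are called 1, 2 and 3 from left to right within it. FUL itself lay at 103, 106 and 94.9 CPM in the Ler libraries and at 8.74, 9.66 and 2.47 CPM in the ful-1 libraries. It lay at 96.7, 109 and 154 CPM in Col-0 and at 2.48, 1.74 and 3.35 CPM in ful-7 meristems. In both tissues every mutant library was thus below every wild-type library, as the labels have it. Library totals ran from 13191949 counts in ful-1 library 3 to 83606724. The labelled tissues matched their markers in part. The summed level of 7 pistil markers was 316 to 713 CPM in pistils and 48.6 to 66.1 CPM in meristems, and that of 6 meristem markers was 256 to 354 CPM in meristems and 44.6 to 54.3 CPM in pistils. In pistils the defining meristem markers CLV3, WUS and LFY were at or near 0, at no more than 0.195 CPM.

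Of the 42 genes, 14 carried the G-box CACGTG within 250 bases before and 50 bases after the annotated start, a share of 33.3%, against 7.68% of 27431 protein-coding promoters in the RefSeq annotation of TAIR10.1. The I-box GATAAG was found in 17 of the 42 (40.5%, against 14.7% of all promoters), CCAATC in 15 (35.7%, against 12.3%) and AGATTCT, the core bound by GLK factors, in 8 (19%, against 7.59%). Both strands were searched. Of the 10 PSB promoters, 6 held a G-box, against 3 of 14 LHCB promoters. CCAATC was found in 8 of 14 LHCB promoters and in 1 of 12 PSA promoters. A match is a description of the letters and not a binding site. The 3 genes with 2 G-boxes were PSBQ1 and PSBQ2, which encode the PsbQ subunit of the oxygen-evolving complex, and PSAH2, a subunit at the docking side of photosystem I. They are shown with LHCB1.4, the LHCB1 gene with the largest difference between the wild types, and LHCB1.5, its neighbour on chromosome 2 in the opposite direction. Each sequence is the 170 bases before the RefSeq gene start on the strand of the gene, read from the TAIR10.1 genome, and capitals mark matches to any of these motifs on either strand. PSBQ1 lies at chr4:11334182-11334351 on the plus strand, PSBQ2 at chr4:2673244-2673413 on the minus strand and PSAH2 at chr1:19454628-19454797 on the plus strand. LHCB1.4 lies at chr2:14524437-14524606 on the plus strand and LHCB1.5 at chr2:14523569-14523738 on the minus strand.
PSBQ1: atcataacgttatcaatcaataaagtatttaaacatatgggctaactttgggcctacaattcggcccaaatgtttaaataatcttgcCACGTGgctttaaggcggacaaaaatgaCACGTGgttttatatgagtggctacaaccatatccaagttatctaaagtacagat
PSBQ2: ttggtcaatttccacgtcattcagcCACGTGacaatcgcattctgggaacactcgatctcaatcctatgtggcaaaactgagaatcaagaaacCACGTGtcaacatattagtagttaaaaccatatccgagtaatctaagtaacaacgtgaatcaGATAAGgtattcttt
PSAH2: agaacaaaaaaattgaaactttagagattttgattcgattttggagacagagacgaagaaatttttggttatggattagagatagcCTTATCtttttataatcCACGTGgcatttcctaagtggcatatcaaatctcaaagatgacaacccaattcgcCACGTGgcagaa
LHCB1.4: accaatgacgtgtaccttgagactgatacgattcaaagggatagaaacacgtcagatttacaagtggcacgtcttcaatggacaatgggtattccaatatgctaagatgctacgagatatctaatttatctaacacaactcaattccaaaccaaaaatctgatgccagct
LHCB1.5: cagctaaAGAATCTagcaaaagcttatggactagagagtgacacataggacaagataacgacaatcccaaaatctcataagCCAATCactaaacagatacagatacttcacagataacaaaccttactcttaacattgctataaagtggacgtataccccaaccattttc
In these sequences PSBQ1, PSBQ2 and PSAH2 each held a pair of G-boxes, LHCB1.5 held 1 AGATTCT match and 1 CCAATC match, and LHCB1.4 held none of the motifs.

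Together the 42 genes took a large share of the mRNA counts. In Ler pistils they took 3.76%, 3.96% and 3.95% of all counts and in ful-1 pistils 2.86%, 3.07% and 6.7%. In meristems they took 3.09%, 3.25% and 1.7% in Col-0 and 3.05%, 2.99% and 3.08% in ful-7. In each tissue 1 library thus stood outside the rest, ful-1 library 3 above every other library and Col-0 library 3 below every other. Without them the ful-1 pistils lay below the Ler pistils, while the Col-0 meristems (3.09% and 3.25%) and the ful-7 meristems (2.99% to 3.08%) were close to each other. In bulk tissue a lower share from fewer green cells and one from less RNA per cell cannot be told apart.

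**Figure D1:**
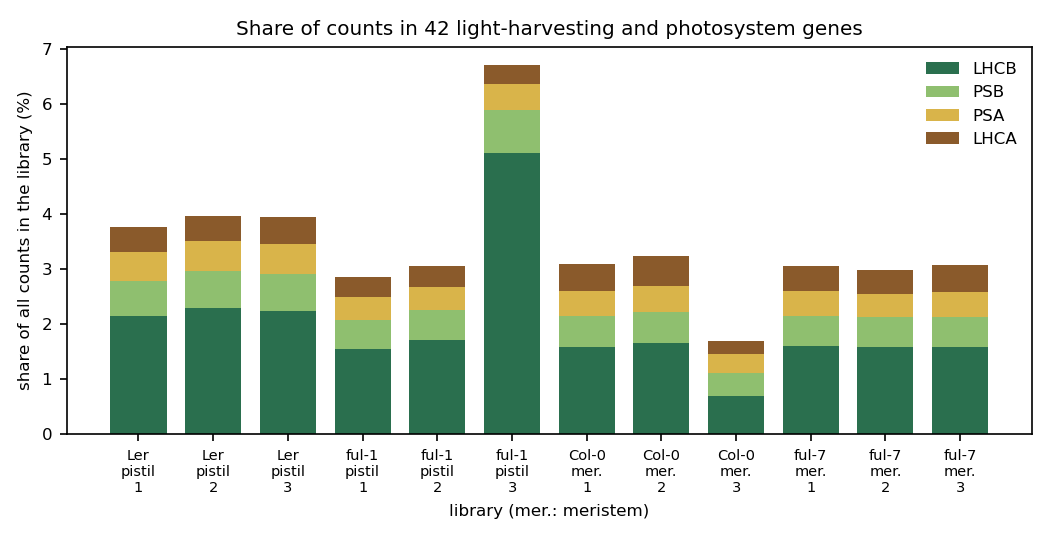
Share of all counts (%) taken by the 14 LHCB, 10 PSB, 12 PSA and 6 LHCA genes in each of the 12 libraries, stacked. The bars reach 6.7% in ful-1 pistil library 3 and 1.7% in Col-0 meristem library 3, and 2.86% to 3.96% in the other 10 libraries.

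The counts of LHCB genes were 4.71, 5.02 and 4.63 times those of LHCA genes in Ler pistils and 4.14, 4.48 and 15.3 times in ful-1 pistils. They were 3.3, 2.99 and 2.77 times in Col-0 and 3.5, 3.63 and 3.17 times in ful-7 meristems. For this ratio the pistil libraries, all in Ler, lay above the meristem libraries, all in Col-0. The PSB to PSA ratio ran from 1.19 to 1.28 in 11 libraries and was 1.69 in ful-1 library 3. Per kb of exon, LHCB1.3 had the highest mean level in each of the 4 groups, 5117 CPM per kb in Ler and 3751 CPM per kb in Col-0, and LHCA6 the lowest, 24.1 and 14.8 CPM per kb.

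Both outlying libraries departed from their groups in a gene-specific way. Against the mean of ful-1 libraries 1 and 2, library 3 was higher for 28 of the 42 genes and lower for 14, while of 20884 genes at 1 CPM or more it was higher for 8263 and lower for 12621. At least 2-fold higher were 17 of the 42 (40.5%, against 16.4% of these genes), and at least 2-fold lower were 5 (11.9%, against 33.9%). The ratio was highest for LHCB1.5, at 8.72, and lowest for PSBY, at 0.211. PSBY (AT1G67740), a small hydrophobic subunit of photosystem II, lay at 205 and 218 CPM in ful-1 libraries 1 and 2 and at 44.7 CPM in library 3. LHCB6 (AT1G15820), which encodes the minor antenna protein CP24, lay at 754 and 791 CPM and at 5264 CPM. In this library most of the 42 were thus high and a minority low. Across genes, Spearman's rho between this library and the remaining 5 was 0.814 to 0.829, against 0.970 to 0.993 among those 5, with 2.04% of its counts from the plastid genome, against 0.118% to 0.393%. What set this library apart was not tested, and pistil results are given with and without it.

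Col-0 library 3 departed in the opposite direction and mostly in the LHCB family. Of the 42 genes, 40 lay below the mean of Col-0 libraries 1 and 2, as did 10529 of 19504 genes at 1 CPM or more. At least 2-fold below were 11 of the 42 (26.2%, against 3.04% of these genes). These 11 held 8 of the 14 LHCB genes, 2 LHCA genes, 1 PSA gene and 0 PSB genes. LHCB1.1, a subunit gene of the trimeric LHCII antenna, lay at 1025 and 907 CPM in libraries 1 and 2 and at 67.5 CPM in library 3. LHCB2.3, whose product also enters LHCII trimers, lay at 94.1 and 109 CPM and at 8.51 CPM. LHCB4.3, a gene for a form of the minor antenna protein CP29, went the other way, with 77.3 and 74.2 CPM in libraries 1 and 2 and 121 CPM in library 3. Across genes this library correlated with the other meristem libraries at 0.969 to 0.982, against 0.979 to 0.996 among these. Meristem results are also given without it.

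**Figure D2:**
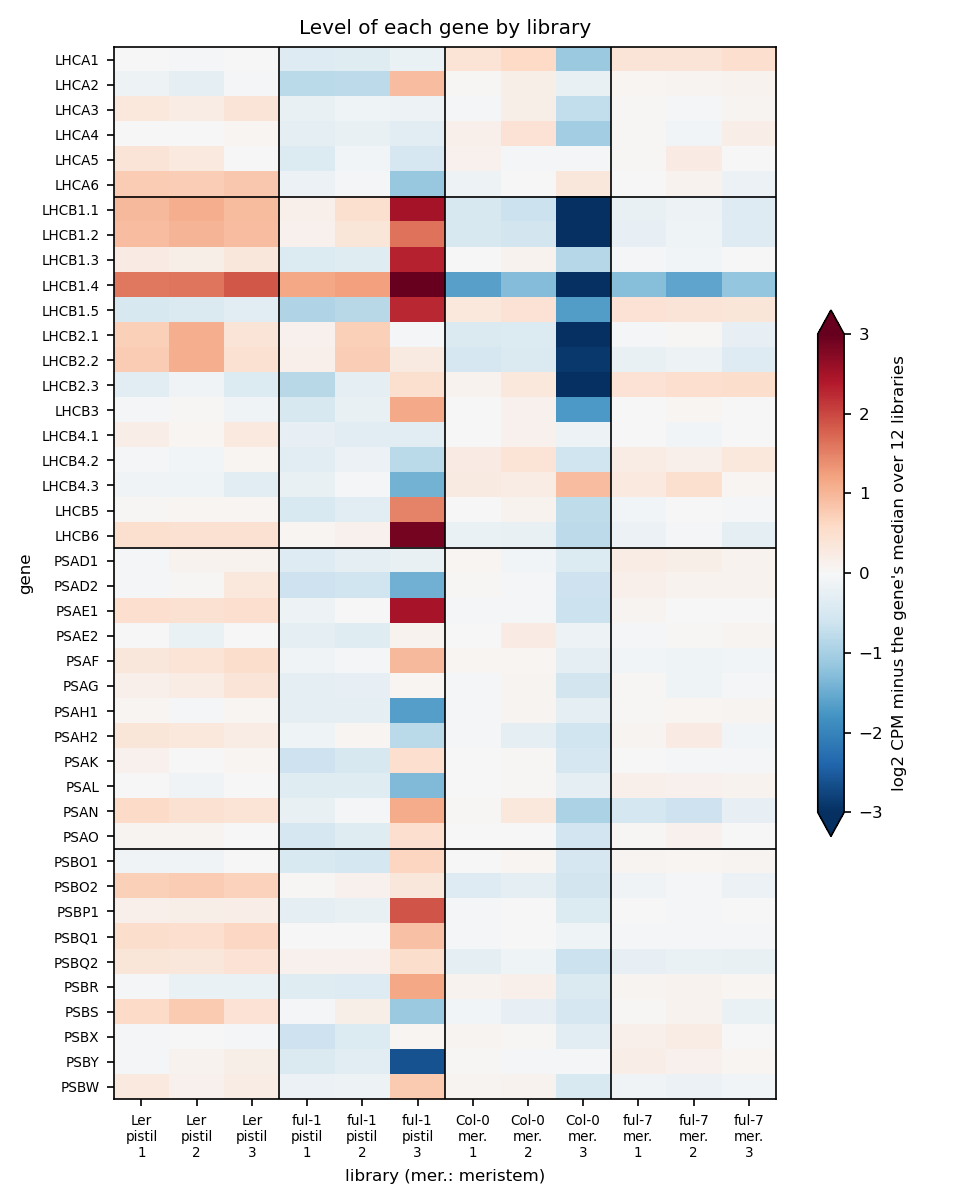
Level of each of the 42 genes in each library, as log2 CPM minus the median of that gene over the 12 libraries (red above, blue below; scale limited to 3). Columns are the libraries of the 4 groups and black lines part the groups and the LHCA, LHCB, PSA and PSB families. Ler pistil columns are mostly redder than those of ful-1 libraries 1 and 2. The column of ful-1 library 3 holds both strongly red and strongly blue genes, and Col-0 library 3 is blue for LHCB1 and LHCB2.

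The pistil comparison asked which of these transcripts depend on FUL in the young fruit. Without ful-1 library 3, 29 of the 42 genes were lower in ful-1 than in Ler pistils, 0 were higher and 13 did not pass edgeR's quasi-likelihood test at an adjusted p of 0.05. The background was 8.26% of 24068 genes called lower. Log2 fold changes were below 0 for 41 of the 42 (49.2% of all genes), with a median of -0.49 against 0.01 over all genes tested, and those called ran from -0.90 to -0.34. For 38 of the 42, both ful-1 libraries lay below all 3 Ler libraries, against 23.1% of all genes. The call depended on the libraries. Over all 6 libraries 0 of the 42 passed (background 0.101% lower), 4 had an unadjusted p under 0.05 by edgeR, all lower (10.3% of all genes in either direction), and DESeq2 called 2 lower (background 2.33%). The median was then -0.09, and 24 of the 42 lay below 0 (49% of all genes). For 13 of the 42 the 3 ful-1 libraries lay below the 3 Ler libraries, against 13.4% of all genes. Each library left out from the set of 5 also moved the count. It was 4 without Ler library 1, 26 without Ler library 2, 15 without Ler library 3, and 1 (LHCA6) without ful-1 library 1 or library 2, where the ful-1 arm is a lone library assumed to vary like the Ler libraries. Over these omissions the median stayed between -0.57 and -0.43, with 41 or 42 genes below 0, and the same libraries moved the share of all genes called lower from 8.26% to between 1.42% and 9.71%.

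Some cell type markers moved with this comparison, while the tapetum and pollen sums and the petal and stamen sums overlapped between the genotypes. Summed guard cell marker levels were 2272, 2441 and 1841 CPM in Ler and 323, 289 and 49.9 CPM in ful-1. Of the 5 guard cell markers, TGG1 and FMA fell, MYB60 and KAT1 rose and OZS1 did not pass (edgeR without ful-1 library 3). Guard cells hold chloroplasts, and TGG1, which encodes a myrosinase, made up most of the sum. The 7 pistil markers summed to 316 to 348 CPM in Ler and 465 to 713 CPM in ful-1. Without ful-1 library 3, 5 of 7 were called higher by edgeR (background 5.12% higher), and over 6 libraries 0 of 7 passed. The 5 tapetum and pollen markers summed to 388 to 1222 CPM in Ler and 398 to 898 CPM in ful-1, and the 2 petal and stamen markers to 26.1 to 36.1 and 28.6 to 53.4 CPM. The part of these cell types in the photosystem result was not tested.

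**Figure D3:**
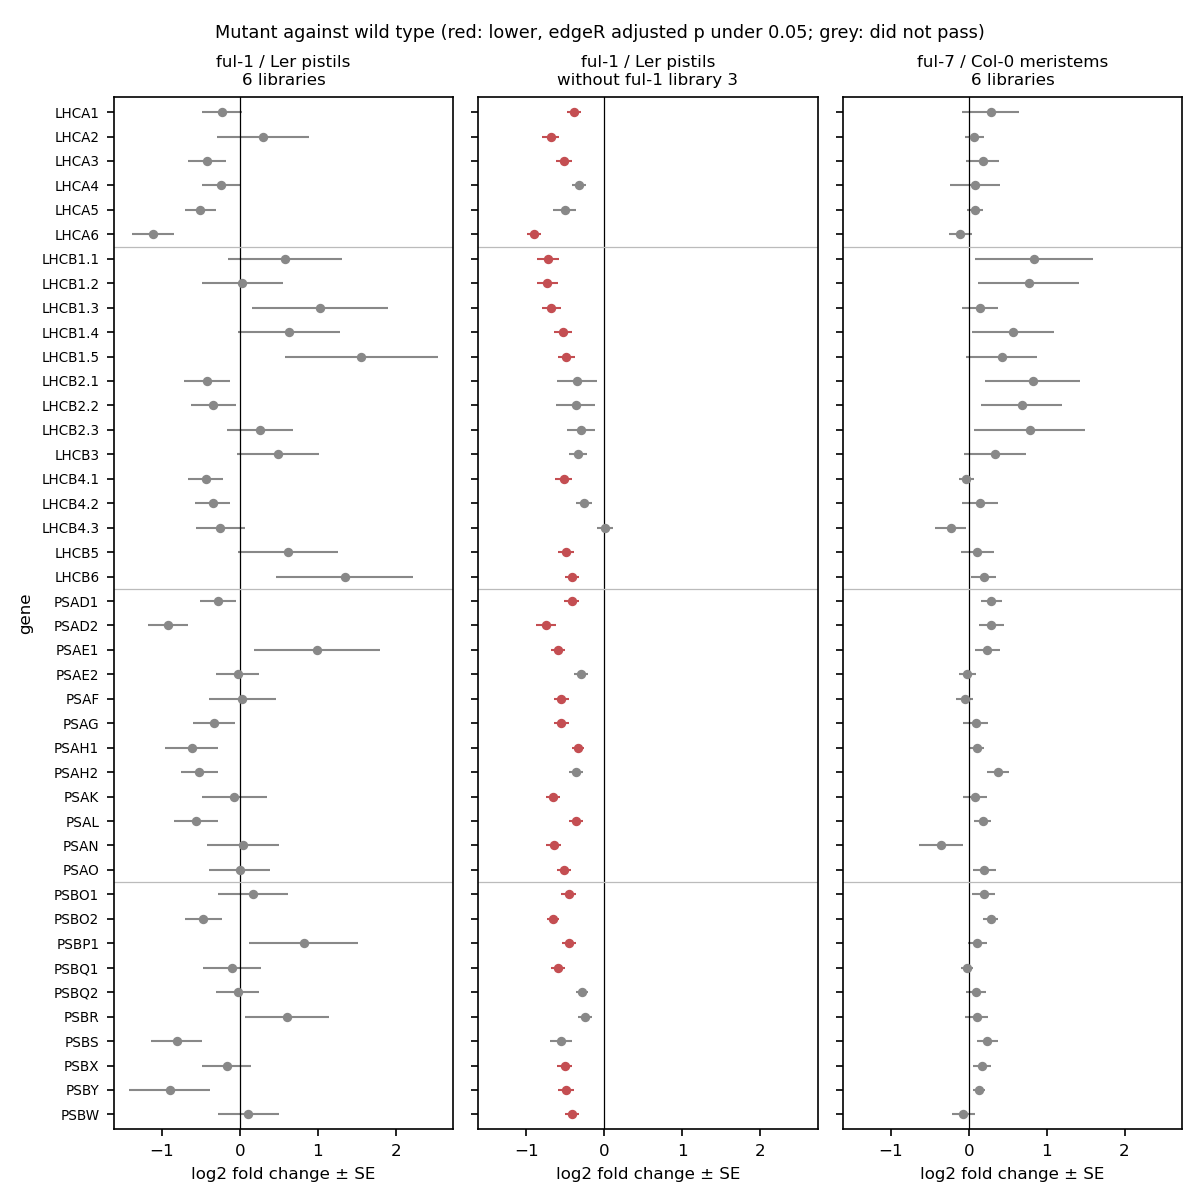
Log2 fold change with its SE for each of the 42 genes in ful-1 against Ler pistils over 6 libraries, in the same comparison without ful-1 library 3, and in ful-7 against Col-0 meristems over 6 libraries. Red points passed edgeR's test as lower (29 in the middle panel, 0 elsewhere) and grey points did not pass.

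In the antenna of photosystem I, 4 of 6 LHCA genes fell in ful-1 pistils without library 3. LHCA6 (AT1G19150), which encodes a minor antenna protein that helps to join photosystem I to the NDH complex, had the largest change of the 42. It lay at 27.7, 27.4 and 28.8 CPM in Ler and at 14.5, 16.1 and 7.4 CPM in ful-1. All ful-1 libraries lay below all Ler libraries. LHCA6 fell to 53.5% of the Ler level, a log2 fold change of -0.90 ± 0.09 (SE, edgeR adjusted p of 0.0034). Over 6 libraries it was -1.11 ± 0.27 (adjusted p of 0.27), which missed the threshold. LHCA2 (AT3G61470), a gene of the main antenna belt, lay at 609.5, 562 and 669 CPM in Ler and at 388, 393 and 1285 CPM in ful-1. Its first 2 ful-1 libraries were below and the third above all Ler libraries, and its log2 fold change was -0.69 ± 0.11 (adjusted p of 0.013) without library 3 and 0.30 ± 0.59 with it. LHCA1 and LHCA3, further members of the belt, fell by 0.39 and 0.52 on the log2 scale.

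LHCA4 (AT3G47470) had the highest level per kb among the LHCA genes in Ler, at 1204 CPM per kb. It lay at 1541, 1534 and 1604 CPM in Ler and at 1256, 1308 and 1243 CPM in ful-1. The groups did not overlap, yet its log2 fold change of -0.32 ± 0.09 had an adjusted p of 0.082 in edgeR's test. LHCA5, the other minor form, had a log2 fold change of -0.51 ± 0.15 with the same adjusted p.

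In the antenna of photosystem II, 8 of 14 LHCB genes fell without ful-1 library 3. All 5 LHCB1 genes were among them, and none of the 3 LHCB2 genes. LHCB1 and LHCB2 proteins make up the mobile LHCII trimers, and phosphorylation of LHCB2 accompanies state transitions. LHCB1.3 (AT1G29930) lay at 6208, 5979 and 6697 CPM in Ler and at 3971, 4081 and 26103 CPM in ful-1. Libraries 1 and 2 of ful-1 were below the Ler range and library 3 was far above it. Its log2 fold change was -0.68 ± 0.12 (SE, edgeR adjusted p of 0.02) without library 3 and 1.03 ± 0.87 with it (adjusted p of 0.63).

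LHCB1.1 (AT1G29920) lay at 2807, 3002 and 2753 CPM in Ler and at 1568, 1987 and 7989.8 CPM in ful-1. It had the same order of libraries, and its log2 fold change was -0.72 ± 0.14 without library 3 and 0.58 ± 0.73 with it. LHCB1.2, LHCB1.4 and LHCB1.5 fell by 0.73, 0.53 and 0.49 on the log2 scale without library 3. The counts of LHCB1.5 cannot be separated from those of AT2G08665, an antisense gene that covers all of its exons. The 2 differed by at most 1 count in every library.

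The LHCB2 genes varied more within the genotypes. LHCB2.1 (AT2G05100) lay at 752, 966 and 598 CPM in Ler and at 495, 743 and 441 CPM in ful-1. Here the genotypes overlapped, and the log2 fold change was -0.35 ± 0.26 (adjusted p of 0.40). LHCB2.2 and LHCB2.3 likewise overlapped, at -0.37 ± 0.25 and -0.30 ± 0.18. LHCB2.1 and LHCB2.2 share identical 100-base stretches over 9.87% and 12.4% of their exon sequence, so reads could be split between them. The exons of LHCB2.3 overlap a gene on the opposite strand over 40.6% of their length, so its reads may be shared as well.

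Of the genes for the minor antenna proteins, which join the trimers to the core, LHCB4.1 (CP29), LHCB5 (CP26) and LHCB6 (CP24) fell by 0.52, 0.49 and 0.41 on the log2 scale. LHCB4.3 (AT2G40100) was the only gene of the 42 with a log2 fold change above 0 without library 3, at 0.01 ± 0.10. It lay at 59.1, 58.9 and 51.3 CPM in Ler and at 54.9, 61.7 and 24.1 CPM in ful-1, and the genotypes overlapped. LHCB3, a subunit of some LHCII trimers, and LHCB4.2 did not pass, at -0.34 ± 0.12 and -0.26 ± 0.10.

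Of the subunits of photosystem I, 10 of 12 PSA genes fell without ful-1 library 3. PSAD and PSAE form the stromal docking site of ferredoxin. PSAD2 (AT1G03130) lay at 212, 223 and 269 CPM in Ler and at 141, 144 and 79.2 CPM in ful-1, below the Ler range in all 3 libraries. It fell by 0.75 ± 0.13 on the log2 scale (SE, edgeR adjusted p of 0.017), to 59.3% of Ler. With library 3 the log2 fold change was -0.92 ± 0.26 (adjusted p of 0.33). PSAD1 and PSAE1 fell by 0.42 and 0.60 on the log2 scale. PSAE2, a second gene for the same subunit as PSAE1, did not pass, at -0.30 ± 0.09.

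PSAK (AT1G30380), a subunit at the edge that faces the antenna, lay at 354, 326 and 338 CPM in Ler and at 209, 230.1 and 461 CPM in ful-1. Libraries 1 and 2 of ful-1 were below and library 3 above all Ler libraries. PSAK fell by 0.66 ± 0.09 on the log2 scale without library 3 (adjusted p of 0.0088) and was at -0.07 ± 0.42 with it. PSAF (AT1G31330), which takes part in plastocyanin binding, had the highest level per kb of the PSA genes in Ler, at 789.9 CPM per kb. It lay at 898, 939 and 1013 CPM in Ler and at 653, 680.0 and 1381 CPM in ful-1, with the same order of libraries, and fell by 0.55 ± 0.10 without library 3 (adjusted p of 0.023).

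PSAN, on the lumenal side, fell by 0.65 on the log2 scale. PSAL, PSAH1 and PSAO, at the side where LHCII docks, fell by 0.37, 0.34 and 0.52, and PSAH2 missed the threshold at -0.36 ± 0.09 (adjusted p of 0.059). PSAG fell by 0.55. The exons of PSAG, PSAH1 and PSAE1 overlap another gene over 61.4%, 53.3% and 33% of their length, and the strand setting of the counting is not given, so reads may be shared.

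Of the subunits of photosystem II, 7 of 10 PSB genes fell without ful-1 library 3. PSBO, PSBP and PSBQ proteins shield the manganese cluster that oxidises water. PSBO2 (AT3G50820) lay at 310.4, 319.7 and 305 CPM in Ler and at 195, 209 and 239 CPM in ful-1, and the genotypes did not overlap in any library. It fell by 0.66 ± 0.08 on the log2 scale (SE, edgeR adjusted p of 0.0071), to 63.3% of Ler. Over 6 libraries its log2 fold change was -0.47 ± 0.24 (adjusted p of 0.50). PSBQ1 (AT4G21280) lay at 403, 396 and 430.4 CPM in Ler and at 278, 281 and 512 CPM in ful-1. Library 3 of ful-1 stood above the Ler range and the other 2 below it, and PSBQ1 fell by 0.59 ± 0.09 without it (adjusted p of 0.011).

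PSBO1 (AT5G66570), the major PsbO gene by level per kb in these pistils, lay at 1337, 1322 and 1434 CPM in Ler and at 1035, 998 and 2244 CPM in ful-1. It fell by 0.46 ± 0.10 without library 3 (edgeR adjusted p of 0.033) and was at 0.17 ± 0.45 with it. PSBP1 fell by 0.45, and the small subunit genes PSBX, PSBY and PSBW fell by 0.51, 0.49 and 0.41 on the log2 scale. PSBS (AT1G44575), which encodes the sensor of energy-dependent quenching, lay at 689.6, 799.6 and 627 CPM in Ler and at 454, 524 and 215 CPM in ful-1. The genotypes did not overlap, and its log2 fold change was -0.56 ± 0.14 with an adjusted p that rounds to 0.050 and did not pass. PSBQ2 and PSBR, at -0.29 ± 0.08 and -0.25 ± 0.09, did not pass.

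**Figure D4:**
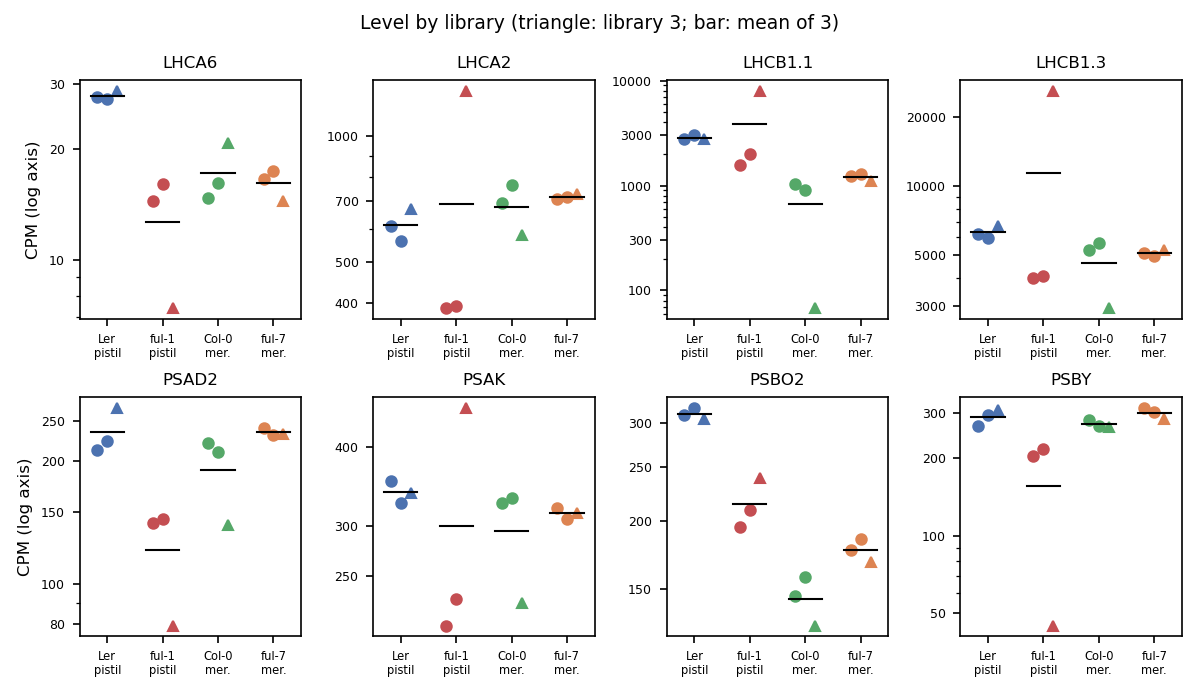
Level in CPM (log axes) of 8 of the genes in each library, with the mean of 3 libraries as a bar and library 3 of each group as a triangle. LHCA6, PSAD2, PSBO2 and PSBY are lower in all 3 ful-1 libraries than in Ler, while LHCA2, LHCB1.1, LHCB1.3 and PSAK are lower in libraries 1 and 2 and higher in library 3.

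Lower calls were spread over genes with and without a G-box. Of 14 with a G-box 8 were called lower without ful-1 library 3, with a median log2 fold change of -0.38, and of 28 without it 21, with a median of -0.52. For the I-box the counts were 12 of 17 with and 17 of 25 without, for AGATTCT 6 of 8 and 23 of 34, and for CCAATC 9 of 15 and 20 of 27. These are counts with no test.

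In meristems the comparison asked the same of ful-7 and Col-0. None of the 42 genes passed edgeR's test over 6 libraries, where 0.292% of all genes were called in either direction. By edgeR 2 had an unadjusted p under 0.05, PSBO2 and PSAH2 (15.1% of all genes), and DESeq2 called 0 (background 3.59%). The median log2 fold change was 0.16, and 8 of the 42 lay below 0 (52.7% of all genes), in a comparison where Col-0 library 3 was low. Without that library 0 passed as well (background 0.408%). By edgeR 10 had an unadjusted p under 0.05, 7 of them higher and 3 lower (PSAF, PSAN and PSBW). The median was 0.02 and 23 of the 42 lay above 0. For this fit the shares of all genes by unadjusted p and by sign were not counted, so neither count is read as a result.

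PSBO2 lay at 146, 158 and 129 CPM in Col-0 and at 177, 185 and 168 CPM in ful-7 meristems. The genotypes did not overlap, but its log2 fold change of 0.28 ± 0.10 (SE) had an edgeR adjusted p of 0.28. PSAH2 (AT1G52230) lay at 179.8, 156 and 125 CPM in Col-0 and at 199.6, 222 and 179 CPM in ful-7, with an overlap between ful-7 library 3 and Col-0 library 1. Its log2 fold change was 0.37 ± 0.14 (adjusted p of 0.30). Without Col-0 library 3 the log2 fold changes of PSBO2 and PSAH2 were 0.21 ± 0.08 and 0.25 ± 0.11 (adjusted p of 0.31 and 0.38). LHCB1.1 lay at 1226, 1289 and 1096 CPM in ful-7, above the 1025, 907 and 67.5 CPM of Col-0. Its log2 fold change was 0.84 ± 0.76 with Col-0 library 3 and 0.31 ± 0.09 without it, with adjusted p values of 0.61 and 0.25. LHCB1.2, LHCB2.1 and LHCB2.3 likewise moved from 0.77, 0.82 and 0.78 with that library to 0.26, 0.33 and 0.25 without it. PSAN went the other way, at 283, 340.1 and 143 CPM in Col-0 and at 191, 178 and 232 CPM in ful-7. Its log2 fold change was -0.36 ± 0.28 with Col-0 library 3 and -0.64 ± 0.13 without it (edgeR adjusted p of 0.56 and 0.15).

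The difference of the ful effect between the tissues, the pistil effect minus the meristem effect, was below 0 for 41 of the 42 genes when ful-1 library 3 was left out (49.5% of all genes). It passed edgeR's test for 15 of them, all lower, against a background of 6.94% of genes. They were 2 LHCA genes, 7 PSA genes, 6 PSB genes and 0 LHCB genes, and 13 of the 15 were also called in pistils alone. When Col-0 library 3 was also left out, the 15 remained and 26 passed (background 7.85%), 6 of them LHCB genes. Over all 12 libraries 0 passed (background 0.561% lower), 8 had an unadjusted p under 0.05 by edgeR (12.2% of all genes) and DESeq2 called 3 (background 2.95%), namely PSAD2, PSAH2 and PSBO2. The difference depended on single libraries too. Without ful-7 library 1 or library 2, 5 were called each (4.45% and 4.48% of all genes lower), and without ful-7 library 3, 13 (6.22%). Without Ler library 1, 2 or 3 there were 7, 12 and 11 (4.99%, 5.73% and 6.39%). Without Col-0 library 1 or library 2 there were 18 and 19 (7.31% and 6.59%). Without ful-1 library 1 or library 2, which leaves a lone ful-1 library, the median was -0.60 and -0.77. The median was -0.54 without Col-0 library 3 and lay between -0.77 and -0.60 when any other library was left out.

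PSBO2 had the lowest p of the 42. Its difference was -0.95 ± 0.12 (log2, SE), with an edgeR adjusted p of 0.00097 without ful-1 library 3 and 0.13 over 12 libraries. Its level was lower in ful-1 libraries 1 and 2 than in Ler and higher in ful-7 than in Col-0. PSBQ1, at -0.58 ± 0.11 (adjusted p of 0.0069), was between 256 and 279 CPM in all 6 meristem libraries, where its effect was -0.02 ± 0.08. PSBY, at -0.63 ± 0.12 (adjusted p of 0.0099), had a meristem effect of 0.13 ± 0.08. The pistil and meristem effects come from different alleles in different ecotypes, so these differences cannot be assigned to the tissue.

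The wild types themselves were compared to describe where each gene is high, with ecotype and tissue confounded. Of the 42 genes 13 were higher in Ler pistils than in Col-0 meristems and 1 was lower (edgeR, 6 libraries), against 31.8% and 29.1% of all genes, so the share called was near the background or below it. Without Col-0 library 3, 15 were higher and 5 lower, against 34.2% and 30.1%. LHCB1.4 (AT2G34430) showed the largest difference. It lay at 446, 454 and 547 CPM in Ler pistils and at 48.2, 61 and 10.1 CPM in Col-0 meristems, 12.6-fold apart, with a log2 fold change of 3.66 ± 0.59 (adjusted p of 0.0014). The groups were far apart in each library. It was 3.20 ± 0.17 without Col-0 library 3.

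PSBO2, at 310.4, 319.7 and 305 CPM against 146, 158 and 129 CPM, was higher in Ler pistils by 1.15 ± 0.10 (log2, SE, edgeR adjusted p of 7.7e-05). PSBS was higher by 0.92 ± 0.14 (adjusted p of 0.0012) and PSBQ1 by 0.65 ± 0.09 (adjusted p of 0.00075). Without Col-0 library 3 these were 1.09, 0.82 and 0.63, and each passed. LHCB4.3 was the gene called lower, at 59.1, 58.9 and 51.3 CPM in Ler and 77.3, 74.2 and 121 CPM in Col-0, with a log2 fold change of -0.65 ± 0.20 (adjusted p of 0.026). Its groups did not overlap. Without Col-0 library 3 it was at -0.37 ± 0.09 (adjusted p of 0.012), and LHCA1, LHCB1.5, LHCB2.3 and LHCB4.2 were called lower beside it.

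The make-up of the LHCB1 counts differed between the pistil libraries, all in Ler, and the meristem libraries, all in Col-0. Tissue and ecotype cannot be told apart in this difference. LHCB1.4 took 2.52% to 3.66% of the LHCB1 counts in the pistil libraries and 0.254% to 0.597% in the meristem libraries. LHCB1.5, its neighbour, took 13.2% to 15.7% in pistils apart from ful-1 library 3 and 30.7% to 31.9% in meristems apart from Col-0 library 3. The outlying libraries had 24% and 21%. LHCB1.3 took 40.3% to 49.7% in 11 libraries and 73.8% in Col-0 library 3. These are shares of counts with no test, and the LHCB1 genes share identical 100-base stretches over 1.51% to 4.44% of their exon sequence.

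**Figure D5:**
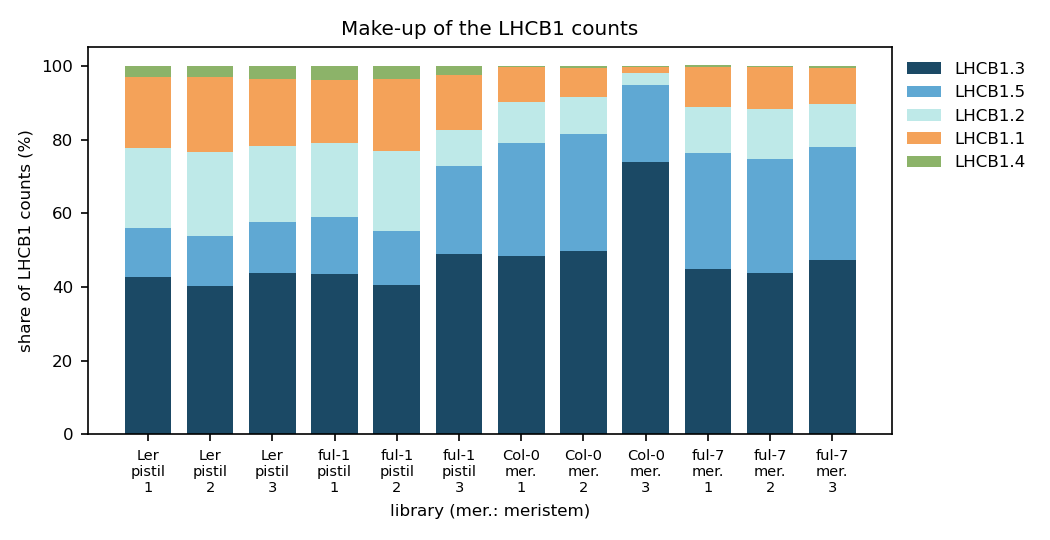
Share (%) of the summed LHCB1 counts that each of the 5 LHCB1 genes took in each library. LHCB1.4 (top) is visible only in the pistil libraries, which are all in Ler, while the meristem libraries are all in Col-0. LHCB1.5 takes 30.7% to 31.9% in the meristem libraries other than Col-0 library 3, and LHCB1.3 takes 73.8% in Col-0 library 3.

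Other genes of photosynthesis were counted from lists of known function. In ful-1 pistils without library 3, 10 of 11 nuclear genes for electron transport and ATP synthase fell, with a median log2 fold change of -0.63 (background 8.26% lower and a median of 0.01), and 0 of 11 passed over 6 libraries by edgeR (2 with an unadjusted p under 0.05). PETC, the Rieske protein of the cytochrome b6f complex, lay at 340.5, 319 and 338 CPM in Ler and at 211, 218 and 510.0 CPM in ful-1, and its log2 fold change was -0.67 ± 0.08 (adjusted p of 0.0062) without library 3. PETE1, a plastocyanin gene, fell by 0.86 ± 0.11 (adjusted p of 0.0078). Of 14 genes of chlorophyll synthesis 10 fell, with a median of -0.63 (over 6 libraries 0 passed and 3 had an unadjusted p under 0.05), and GSA1, of the first steps of tetrapyrrole synthesis, and PCB2, the divinyl reductase, fell by 1.07 ± 0.09 and 1.12 ± 0.08 on the log2 scale (adjusted p of 0.0029 and 0.0023).

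A list of 12 genes covered antenna protein import, photosystem assembly, thylakoid protein phosphorylation and cyclic electron flow. Of the 12, 7 fell (over 6 libraries 0 passed and 2 had an unadjusted p under 0.05). The median log2 fold change of the 12 was -0.43. Among those that fell were CPFTSY, a receptor in the insertion of LHC proteins into the thylakoid, by 0.73 ± 0.07, and PSB28, an assembly factor of photosystem II, by 1.15 ± 0.13 (edgeR adjusted p of 0.0037 and 0.0047). Of 6 genes for LHC-like proteins 2 fell, LIL3:1 and LIL3:2, by 0.93 and 0.74. The ELIP1 and ELIP2 genes for early light-induced proteins did not pass, at 0.58 ± 0.62 and -0.03 ± 0.36.

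Of 5 transcription factors of photosynthesis genes 3 fell, and 1 of them, CGA1, passed over 6 libraries as well. The GATA factor CGA1 lay at 7.22, 7.2 and 8.57 CPM in Ler and at 0.393, 0.521 and 0.296 CPM in ful-1, below Ler in each library. Its log2 fold change was -4.12 ± 0.22 (SE, edgeR adjusted p of 0.0015) without library 3 and -4.17 ± 0.30 (adjusted p of 0.010) with it. Its relative GNC lay at 6.81, 7.64 and 7.91 CPM in Ler and at 1.32, 1.59 and 0 CPM in ful-1, and fell by 2.40 ± 0.17 (adjusted p of 0.0023) without library 3. GLK1, listed as GPRI1, fell by 1.37 ± 0.32 (adjusted p of 0.043), and GLK2 and HY5 did not pass, at -0.03 ± 0.12 and -0.25 ± 0.26.

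The plastid-encoded photosystem genes gave a different count. Of 20 listed, 13 were tested in pistils without ful-1 library 3 and 0 passed edgeR's test (0 with an unadjusted p under 0.05). Their summed level was 31.8, 12.5 and 33.9 CPM in Ler and 11.4, 38.7 and 99 CPM in ful-1, so the genotypes overlapped. The lowest p values among them were those of psaJ (ATCG00630) and psbK (ATCG00070), small subunit genes of photosystem I and II, at -0.88 ± 0.43 (adjusted p of 0.22) and -0.85 ± 0.49 (adjusted p of 0.29). Plastid genes took 0.118% to 2.04% of the counts over the 12 libraries. The libraries were enriched for mRNA, and how evenly plastid transcripts were captured was not tested. In meristems 0 of the tested genes of each of these lists passed over 6 libraries (edgeR), with 0 to 3 per list at an unadjusted p under 0.05.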

How the data were processed

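The authors deposited 1 table of raw counts per gene for the 12 libraries. Per the labels' protocols, a CTAB and lithium chloride extraction was followed by mRNA enrichment, a stranded TruSeq kit and paired-end NovaSeq sequencing. The tools, per the submitters' processing notes, were STAR 2.7.0b and featureCounts 1.6.0 on TAIR10. For trimming, the strand setting and reads with several positions the settings are not given in the sources used, and LHCB1.5 and its antisense gene had near-equal counts, so these counts did not separate strands there. Column names give the group but no replicate number.

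The counts were tested with edgeR 4.0.16 in R 4.3.3 (filterByExpr, TMM, quasi-likelihood test, Benjamini-Hochberg adjustment over all genes tested, threshold 0.05), with limma 3.58.1 and DESeq2 1.42.0 for alternatives. Tables, motif counts and plots used Python 3.11.15, pandas 2.3.3, numpy 2.4.6 and matplotlib 3.10.9. Each comparison was fitted on its own groups, and the difference of the ful effect on all 4 groups. Printed CPM values were scaled over all 12 libraries, while the counts of genes whose groups did not overlap used CPM scaled within each fit. Single genes can overlap on 1 of these scales only, as LHCA1 did over 6 pistil libraries. SE was derived from the log2 fold change and its F statistic (their ratio after taking the root of F). P-values cover only the spread among these samples, each a pool of organs. The biological coefficient of variation was 0.413 for pistils with ful-1 library 3 and 0.157 without it, which limits what the 6-library fit can call.

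The genes and lists were chosen with earlier results of these data known. Full values are given for the called genes with the lowest p in each fit (4 per direction, or the 2 lowest where fewer than 2 were called), the highest level per kb in each family, the 3 lowest p for the difference and the 2 lowest p per further list. Those of the difference and of the lists come from the fits without ful-1 library 3. LHCA2, LHCA5, LHCB1.1, LHCB2.1, LHCB2.3, LHCB6, ELIP1, ELIP2, GLK1, GLK2 and HY5 and other genes named beyond this rule were named after their values were seen. The pistil and meristem fits were also run on simulated counts with a biological coefficient of variation of 0.15 and no outlying library. That setting cannot show how the 6-library pistil fit performs, since its own value was 0.413. Lengths, overlaps and promoters came from RefSeq TAIR10.1, which matched 36632 of 36917 gene identifiers. Values without Col-0 meristem library 3 were added after its values were seen, for the counts and for most named genes.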

Additional observations from a re-analysis of the deposited data

Results flagged for a closer look

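The effect of ful differed between pistils and meristems for 15 genes by a test of the difference itself, in edgeR's quasi-likelihood test without ful-1 library 3. The values are log2 differences, the ful-1 effect in pistils minus the ful-7 effect in meristems. Among subunits of photosystem I they were -1.05 for PSAD2, -0.84 for PSAE1, -0.75 for PSAK, -0.74 for PSAH2, -0.74 for PSAO, -0.72 for PSAD1 and -0.56 for PSAL. Among subunits of photosystem II they were -0.95 for PSBO2, -0.81 for PSBS, -0.69 for PSBX, -0.63 for PSBY, -0.58 for PSBQ1 and -0.57 for PSBP1. Among antenna genes they were -0.80 for LHCA6 and -0.77 for LHCA2. PSAH2 and PSBS passed this test without passing the pistil test alone. Tissue, allele and ecotype cannot be told apart in these values, and over all 12 libraries 0 of the 15 passed. When Col-0 library 3 was also left out, all 15 passed, at log2 differences of -0.98 to -0.46.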

How the results depend on the processing

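Which libraries were used moved the counts of called genes more than the other choices run. No named call changed its direction under the alternatives run, while values that did not pass over 6 pistil libraries, such as that of LHCA2, changed sign without ful-1 library 3. Over 6 pistil libraries, DESeq2 called 2 of the 42 (LHCA6 and PSAD2, with 2.33% of all genes lower) and a fit of all groups 1 (LHCA6). The main edgeR fit called 0 (0.101%), and leaving out 1 library gave 0 to 29. Without ful-1 library 3 the count was 29 (8.26% of all genes lower), and it was 18 in a fit of all groups. Leaving out a Ler library as well gave 4 to 26, with 3.46% to 9.71% of all genes called lower. For the difference between tissues over 12 libraries, DESeq2 called 3 (2.95% of all genes lower) and edgeR 0 (0.561%), or 0 to 15 with 1 library left out. Over 11 libraries DESeq2 called 23 and edgeR 15 (6.94%). Leaving out a further Col-0, ful-7 or Ler library gave 5 to 26, with 4.45% to 7.85% of all genes called lower. In meristems all alternatives gave 0, and leaving out a library gave 0 to 0. For Ler pistils against Col-0 meristems the count was 14, and leaving out 1 library gave 10 to 20. Over these omissions 23.7% to 30.1% of all genes were called lower and 27.1% to 34.2% higher. For the fits of all groups and DESeq2 over 11 libraries no share of all genes is given, so those counts are not read as results about the 42. The cause of these shifts was not tested. Among the named genes, LHCB4.3 between tissues, and LHCB1.3 and PSBO1 in pistils without ful-1 library 3, lost the call in the fit of all groups, at log2 fold changes of -0.66, -0.68 and -0.46 (edgeR adjusted p of 0.12, 0.076 and 0.063). No paired analysis was possible because the columns carry no replicate numbers. Depth limits ful-1 library 3 most, with 13191949 counts.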

Other observations

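Among photosynthesis genes outside the 42, the early light-induced protein gene ELIP1, a relative of the antenna genes, differed between the wild types. It lay at 35.2, 61.5 and 13.9 CPM in Ler pistils and at 1.18, 0.21 and 0.23 CPM in Col-0 meristems, and was higher by 6.07 ± 0.80 on the log2 scale (SE, edgeR adjusted p of 0.00052), or by 5.65 ± 0.89 without Col-0 library 3. ELIP2 was higher by 3.29 ± 0.49 (edgeR adjusted p of 0.00093), or by 2.92 ± 0.43 without that library. Of 14 chlorophyll synthesis genes 10 were higher in Ler pistils and 0 lower, while of 17 tested plastid-encoded photosystem genes 12 were lower and 0 higher, against a background of 31.8% higher and 29.1% lower. The plastid-encoded genes summed to only 12.5 to 33.9 CPM in Ler and 90.1 to 123 CPM in Col-0. How evenly these mRNA-enriched libraries captured plastid transcripts was not tested. Of the 5 transcription factors of photosynthesis genes, 1 was higher in Ler pistils, 2 were lower and 2 did not pass. CGA1 was higher by 7.22 ± 0.49 on the log2 scale (edgeR adjusted p of 2.9e-05), or by 8.39 without Col-0 library 3. It lay at 0.0341, 0 and 0.0984 CPM in Col-0. GLK1 (GPRI1) and GLK2 were lower, at log2 fold changes of -1.55 ± 0.24 and -0.74 ± 0.21 (edgeR adjusted p of 0.0012 and 0.018). Without Col-0 library 3 these were -1.52 and -0.97. Without Col-0 library 3, 11 of the 14 chlorophyll synthesis genes were higher and 11 of the 17 plastid-encoded genes lower. Tissue and ecotype cannot be told apart here.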
